A study of Xenopus laevis with 5 samples.

Results

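Kruppel-like factors are zinc-finger transcription factors that bind CACCC and GC boxes in promoters, and they are grouped by the cofactors they recruit. In mouse embryonic stem cells klf2, klf4 and klf5 belong to the circuit that holds cells in the pluripotent state, and in mammals the same genes act in endothelium and epithelium. Klf9, klf10, klf11 and klf13 recruit the Sin3A corepressor in mammalian cells, and klf10 and klf11 were first described there as genes induced early by TGF-beta. Their transcripts were followed here in early gastrulae of the frog Xenopus laevis, an allotetraploid that carries most genes as an L copy and an S copy on separate subgenomes.

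The members were all gene models named klf2, klf4, klf5, klf6, klf9, klf10, klf11, klf13 or klf17 in the deposited annotation, with both copies taken. Of these 9 symbols 8 were found, each with an L and an S copy, which gave 16 of the 45099 gene models. Gene klf17 was not analysed here. On the filter for low counts, 12 of the 16 copies passed, and both copies of klf4 and of klf9 did not.

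RNA was sequenced from whole embryos at stage 10.5 that had been injected with 18 ng of a morpholino, a stable antisense oligonucleotide. One group of 2 libraries received a morpholino against the translation of the RNA helicase MOV10, a factor of the RNA-induced silencing complex, and is called the MOV10 group. The control group of 3 libraries received a control morpholino. Eggs of 2 mating pairs were used, and the sources used here do not tie embryos to pairs. The labels speak of separate embryos as replicates, so p-values measure the spread between these libraries. The comparison asks how embryos with blocked MOV10 translation differed from control embryos in their RNA. MOV10 replicate 1 was not analysed here, so the MOV10 libraries are replicates 2 and 3 and the control libraries are replicates 1 to 3.

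Gene counts were 11727654 and 11347400 in the MOV10 libraries, against 13515787, 12114894 and 11592035 in the control libraries. Levels are given in CPM, the read count scaled to library size with TMM factors, and a floor of 3 counts corresponded to between 0.201 and 0.283 CPM. The only model named mov10, mov10.L, was at 32.8 and 26.0 CPM in MOV10 libraries, against 7.03, 2.69 and 5.87 CPM in control libraries. A translation block need not lower the RNA, so this level does not check the labels. The 2 groups stood far apart in markers of tissue and stage. Muscle markers summed to 14900 and 17040 CPM in MOV10 libraries, against 91.1, 417 and 186.8 CPM in control libraries. All 17 tested copies were higher, against 24.4% of all genes tested. The muscle markers were led by actc1.L and actc1.S, cardiac actin, and tnnt3.S, a troponin of fast muscle. Markers of the gastrula summed to 1036 and 1692 CPM in MOV10 libraries, against 3883, 2831 and 3433 CPM in control libraries. In edgeR's test 16 of 27 tested copies were lower, against 17.7% of all genes tested. None was higher, also at an unadjusted p under 0.05. The most abundant gastrula markers were gs17.L, with a log2 fold change of -3.55, and sox17a.S and sox17a.L, endoderm factors at 0.48 and 0.13 that did not pass the test. Both MOV10 libraries, though labelled stage 10.5, thus carried abundant muscle RNA, and a difference in developmental age cannot be told apart from the morpholino in this design. In whole embryos, fewer cells of a type and less RNA per cell cannot be told apart either.

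Klf10 was the member with the highest fold, and klf2 the one with the lowest. With the MOV10 morpholino 4 copies were higher (klf10.L, klf10.S, klf11.L and klf6.L), 3 were lower (klf2.L, klf2.S and klf13.S) and 5 of the 12 tested did not pass edgeR's quasi-likelihood test at an adjusted p under 0.05. This share of 58.3% stands beside 42.1% of all 20049 genes tested, with 24.4% higher and 17.7% lower. The median log2 fold change was 0.51 over the 12 copies, against 0.08 over all genes. In 6 tested copies both MOV10 libraries lay above every control and in 4 they lay below, against 35.5% and 30.4% of all genes, or 65.9% in either direction. Without MOV10 replicate 2, which leaves 1 MOV10 library, the log2 fold changes were 6.52 for klf10.L, 4.21 for klf10.S, 2.56 for klf11.L and 2.05 for klf6.L. For the lower copies they were -1.86 for klf2.L, -3.195 for klf2.S and -1.60 for klf13.S.

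**Figure D1:**
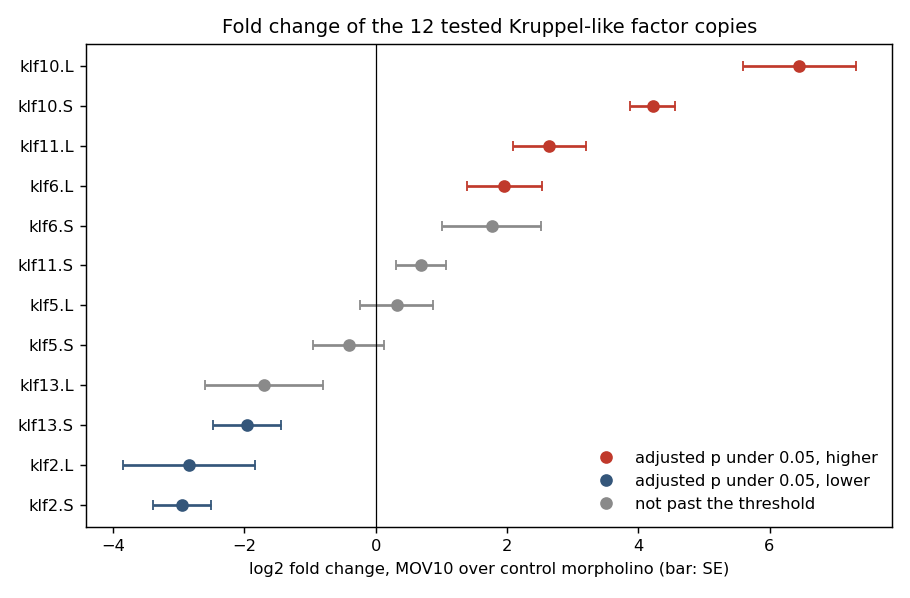
Log2 fold change of each of the 12 tested Kruppel-like factor copies, MOV10 over control morpholino, with the standard error as a bar. Copies of klf10 lie farthest to the right (6.45 and 4.22) and copies of klf2 farthest to the left (-2.85 and -2.95), and the grey points did not pass the test.

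Both copies of klf10, and the L copy of its close relative klf11, were higher with the MOV10 morpholino. Klf10 (TIEG) and klf11 repress transcription through Sin3A. Of their 4 copies 3 were higher, none was lower and klf11.S did not pass the test.

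Klf10.S, on chromosome 6S from 109210900 to 109218700 of the Xenla9.1 build, was at 33.4 and 33.5 CPM in MOV10 libraries, against 1.74, 1.22 and 2.40 CPM in control libraries. Both MOV10 values lay far above all 3 controls and nearly coincided with each other. At counts of 355 and 354 they lie closer than counting error alone would usually leave them, so their SD is a poor guide to the spread. The means were 33.4 ± 0.0381 CPM (SD, n = 2) and 1.79 ± 0.588 CPM (SD, n = 3), a log2 fold change of 4.22 ± 0.35 (SE), or 18.6-fold higher, with an edgeR adjusted p of 8.67e-05. Klf10.L, on 6L from 132880722 to 132887573, had 119 and 130 counts in MOV10 libraries, against 5, 0 and 0 counts in control libraries. The transcript was thus seen in control replicate 1 alone among the controls, at 0.335 CPM, and at 11.2 and 12.3 CPM in MOV10 libraries. Its log2 fold change was 6.45 ± 0.86 (SE; 87.7-fold; edgeR adjusted p = 7.38e-04), and without control replicate 1 it is a bound of at least 95.4-fold higher.

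Klf11.L, on 5L from 138025057 to 138036164, was at 10.2 and 9.17 CPM in MOV10 libraries, against 0.870, 2.77 and 0.991 CPM in control libraries. All controls lay below both MOV10 libraries, and control replicate 2 was the highest of them. The means of 9.66 ± 0.703 CPM (SD, n = 2) and 1.54 ± 1.06 CPM (SD, n = 3) differed by 2.65 ± 0.56 on the log2 scale (SE; edgeR adjusted p = 0.00602), or 6.26-fold, and 10.3-fold without control replicate 2. Klf11.S, on 5S from 119039603 to 119046887, was at 7.90 and 8.51 CPM in MOV10 libraries, against 4.42, 6.44 and 4.38 CPM in control libraries. Its groups did not overlap either, yet the log2 difference of 0.69 ± 0.38 (SE) did not pass the test (edgeR adjusted p = 0.173).

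Klf6, first described in mammals as a protein that binds a core promoter element, had one copy past the test. Klf6.L, on 6L from 16914027 to 16923692, was at 4.23 and 4.91 CPM in MOV10 libraries, against 1.67, 0.652 and 1.16 CPM in control libraries. All control libraries were below both MOV10 libraries. The log2 fold change was 1.96 ± 0.57 (SE; 3.89-fold; edgeR adjusted p = 0.0241). The call was kept without control replicate 1 (adjusted p = 0.0267) and lost without any other library, with an adjusted p of 0.0615 without MOV10 replicate 2, 0.0962 without MOV10 replicate 3, 0.0579 without control replicate 2 and 0.0586 without control replicate 3. Klf6.S, on 6S from 13830161 to 13839451, was at 4.42 and 4.16 CPM in MOV10 libraries, against 2.48, 0.326 and 0.909 CPM in control libraries. Control replicate 1 was the highest control, and the groups still did not overlap. The fitted log2 difference of 1.77 ± 0.75 (SE) missed the threshold (edgeR adjusted p = 0.0917), while without control replicate 1 it was 2.78, or 6.85-fold, with an adjusted p of 0.0224.

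**Figure D2:**
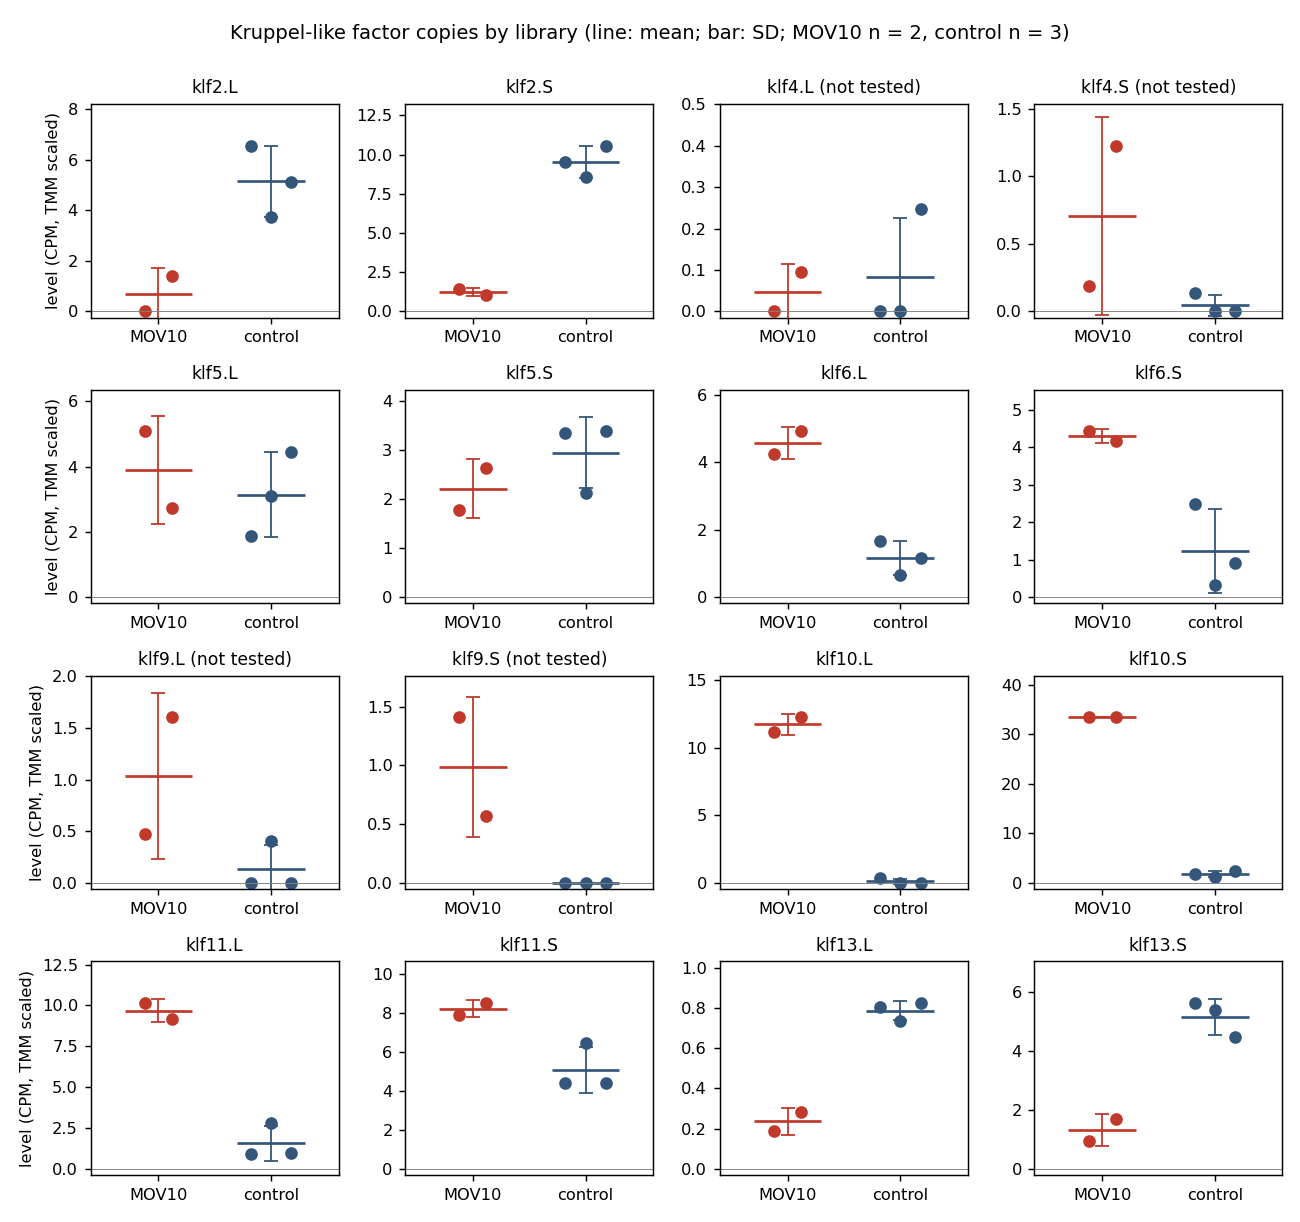
Level of each of the 16 copies in every library, in CPM after TMM scaling, with a scale of its own in each panel. Points are libraries (2 MOV10, 3 control), lines the group means and bars the SD, cut off at the lower axis where they run below 0. Both klf10 copies show MOV10 points far above the controls, both klf2 copies and both klf13 copies show the reverse, and both klf5 copies overlap.

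The pluripotency-associated members differed among themselves, with klf2 lower, klf5 without a call and klf4 at the limit of detection. Of their 6 copies 4 were tested, 2 were lower and none was higher. Unnamed gene models that the annotation matches to human KLF2 or KLF4 are not among these copies, and they are given under the other observations. In mammals klf2 is also a shear-stress response factor of endothelium, klf4 is one of the factors used to reprogram somatic cells, and klf5 acts in proliferating epithelium.

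Klf2.S, on Scaffold21 from 174096 to 177739, was at 1.41 and 1.04 CPM in MOV10 libraries, against 9.51, 8.56 and 10.6 CPM in control libraries. Both MOV10 libraries lay well below every control. The means of 1.23 ± 0.263 CPM (SD, n = 2) and 9.55 ± 1.01 CPM (SD, n = 3) gave a log2 fold change of -2.95 ± 0.44 (SE), or 7.73-fold lower, with an edgeR adjusted p of 0.00122. Klf2.L, on 1L from 112403311 to 112407135, had 0 and 15 counts in MOV10 libraries, against 98, 46 and 62 counts in control libraries. It was undetected in MOV10 replicate 2, where a count of 0 allows up to 0.282 CPM, and at 1.42 CPM in MOV10 replicate 3, against 6.56, 3.75 and 5.12 CPM in control libraries. Its log2 fold change of -2.85 ± 1.0 (SE; 7.18-fold lower) passed only narrowly, at an edgeR adjusted p of 0.0491. Leaving out control replicate 1, 2 or 3 gave adjusted p-values of 0.11, 0.0676 and 0.0997, and leaving out MOV10 replicate 2 gave 3.64-fold lower at 0.0593. Without MOV10 replicate 3 the MOV10 group is at 0, and klf2.L is then at least 18.6-fold lower.

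Klf5.L, on 2L from 126991996 to 127009273, was at 5.08 and 2.74 CPM in MOV10 libraries, against 1.88, 3.10 and 4.46 CPM in control libraries. Klf5.S, on 2S from 109124639 to 109140452, was at 1.79 and 2.65 CPM in MOV10 libraries, against 3.35, 2.12 and 3.39 CPM in control libraries. The groups overlapped for both copies, and the log2 differences of 0.32 ± 0.55 and -0.41 ± 0.54 (SE) did not pass edgeR's test (adjusted p = 0.676 and 0.571). Klf4.L, on 1L from 118358230 to 118370230, had 0 and 1 counts in MOV10 libraries, against 0, 0 and 3 counts in control libraries. Klf4.S, on 1S from 97792959 to 97806289, had 2 and 13 counts in MOV10 libraries, against 2, 0 and 0 counts in control libraries, a ratio of 13.9 (exact 95% interval 3.23 to 125). Most of these klf4.S reads came from MOV10 replicate 3, and the interval covers counting error only.

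Klf13.S was lower, and klf9 had too few reads to be tested. Klf9 is induced by thyroid hormone in the Xenopus tadpole, and klf13 works with gata4 in the Xenopus heart. Of their 4 copies 2 were tested and klf13.S was the only one called.

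Klf13.S, on 3S from 55665116 to 55710931, was at 0.941 and 1.70 CPM in MOV10 libraries, against 5.62, 5.38 and 4.46 CPM in control libraries. The groups were well separated, with means of 1.32 ± 0.538 CPM (SD, n = 2) and 5.16 ± 0.613 CPM (SD, n = 3). The log2 fold change was -1.96 ± 0.52 (SE; 3.88-fold lower; edgeR adjusted p = 0.0164), and the adjusted p was 0.0702 without MOV10 replicate 2. Klf13.L, on 3L from 86912840 to 86970160, had 2 and 3 counts in MOV10 libraries, against 12, 9 and 10 counts in control libraries. These did not overlap, and at this depth the log2 difference of -1.70 ± 0.90 (SE) did not pass the test (edgeR adjusted p = 0.162). On the opposite strand klf13.L had 8 and 5 reads in MOV10 libraries, against 0, 0 and 7 reads in control libraries. With both strands counted its log2 difference was only -0.25 (edgeR adjusted p = 0.83).

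Klf9.L, on 1L from 128161393 to 128178484, had 5 and 17 counts in MOV10 libraries, against 0, 5 and 0 counts in control libraries, a ratio of 8.15 (exact 95% interval 3.01 to 27.6). Klf9.S, on 1S from 105222485 to 105223138, had 15 and 6 counts in MOV10 libraries, against 0 counts in each of the 3 control libraries. Against a floor of 3 counts over the control group it was at least 13.0-fold higher. Its model spans 654 bp of the annotation, against 17092 bp for klf9.L. That bound was 7.43-fold without MOV10 replicate 2, 18.5-fold without MOV10 replicate 3, and 8.04-fold to 8.98-fold without 1 control library. With no filter on low counts klf9.S had an edgeR adjusted p of 0.0289 and klf9.L one of 0.218, and DESeq2 gave 0.0202 and 0.238. With reads of both strands counted the order was the reverse, with an edgeR adjusted p of 0.0652 for klf9.S and 0.0351 for klf9.L. A call for either copy thus depends on the setting.

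The share of the reads of the 16 member copies held by each gene is given as a description. Other Kruppel-like factor genes are outside this total. Among them klf8.L was at 13.4 and 7.09 CPM in MOV10 libraries, against 17.8, 16.8 and 16.7 CPM in control libraries. Gene models without a klf name that the annotation matches to human Kruppel-like factors are outside it too. All 16 copies together had 880 and 908 reads in MOV10 libraries, against 588, 435 and 471 reads in control libraries. Scaled to library size, this was 82.8 and 85.8 CPM in MOV10 libraries, against 39.4, 35.5 and 38.9 CPM in control libraries. Klf10 took 53.9% and 53.3% of these reads in MOV10 libraries (exact 95% intervals 50.5 to 57.2% and 50 to 56.6%), against 5.27%, 3.45% and 6.16% in control libraries (intervals 3.61 to 7.40%, 1.94 to 5.62% and 4.16 to 8.72%). Klf2 took 1.70% and 2.86% in MOV10 libraries, against 40.8%, 34.7% and 40.3% in control libraries. Klf13 held 1.36% and 2.31% in MOV10 libraries, against 16.3%, 17.2% and 13.6% in control libraries. Of the reads of these 16 copies, klf10 therefore held the largest share in both MOV10 libraries and klf2 in all 3 controls. Klf11 overlapped between the groups on this measure, at 21.8% and 20.6% in MOV10 libraries, against 13.4%, 26% and 13.8% in control libraries. These are shares of reads and not of transcripts, because the files give the span of a gene with its introns and no transcript length, so levels are not compared between genes.

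**Figure D3:**
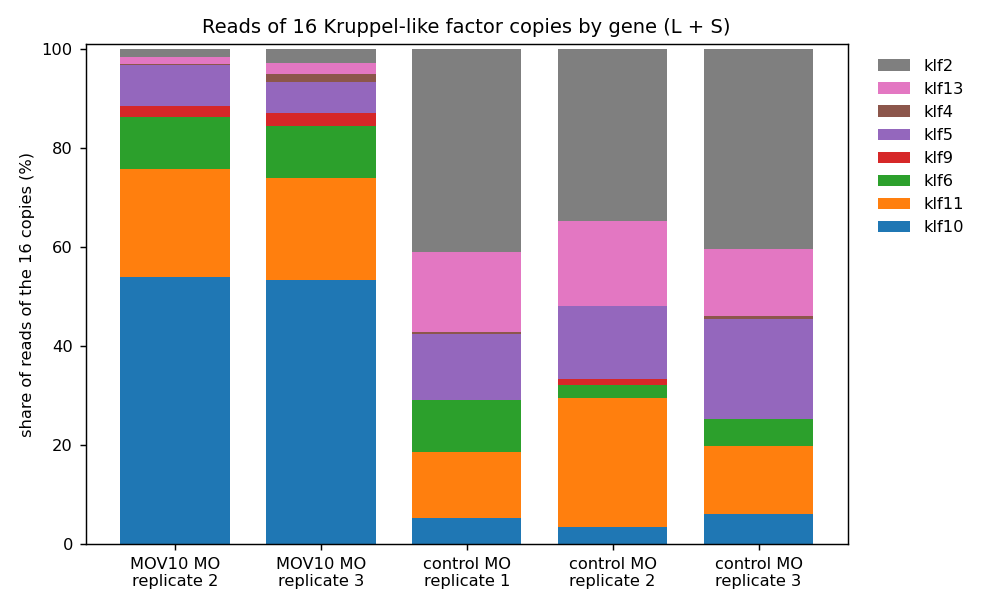
Share of the reads of the 16 copies held by each gene, L and S copies added, in each library, in percent. The blue block of klf10 fills 53.9% and 53.3% of the MOV10 bars, and the grey block of klf2 fills 34.7% to 40.8% of the control bars.

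Whether the 2 copies differed in their response was tested on the ratio of the copies, over 5370 gene pairs. Of the 6 tested Kruppel-like factor pairs 1 passed, klf11, against 26.7% of all pairs. The L copy held 56.2% and 51.9% of klf11 reads in MOV10 libraries (exact 95% intervals 48.9 to 63.4% and 44.5 to 59.2%), against 16.5%, 30.1% and 18.5% in control libraries (intervals 9.06 to 26.5%, 21.8 to 39.4% and 9.92 to 30%). Both MOV10 libraries thus had a larger L share than any control. The mean log2 ratio of L to S, with 0.5 CPM added to each, was 0.22 in the MOV10 group and -1.55 in the control group, a difference of 1.77 ± 0.48 (SE; limma adjusted p = 0.0245). The adjusted p was above 0.05 when MOV10 replicate 2 (0.123), MOV10 replicate 3 (0.0932), control replicate 1 (0.0671) or control replicate 3 (0.061) was left out.

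For klf10 the L copy held 25.1% and 26.9% of reads in MOV10 libraries, against 16.1%, 0% and 0% in control libraries. Controls had only 31, 15 and 29 klf10 reads, so counts of 0 for the L copy allow shares of up to 21.8% and 11.9% in control replicates 2 and 3 (exact 95% intervals). The log2 ratio difference was 0.44 ± 0.52 (SE; limma adjusted p = 0.56). It was -0.12 with 1 CPM added in place of 0.5, and 2.23 in a count model of the pair (edgeR diffSpliceDGE adjusted p = 0.095), a model in which klf11 alone of the 6 passed, against 19.6% of all pairs. Differences were 0.85 ± 0.52 for klf13, 0.63 ± 0.61 for klf5, 0.05 ± 0.69 for klf2 and -0.01 ± 0.55 for klf6 (SE), and none of these passed (limma adjusted p = 0.256 to 0.995). Reads that map equally well to both copies were not counted, so the split between copies holds for reads with a unique place alone. Reads mapping to several places were 5.53% and 2.13% of all reads in MOV10 libraries, against 2.02% to 2.31% in control libraries, and their part in the ratios was not tested.

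**Figure D4:**
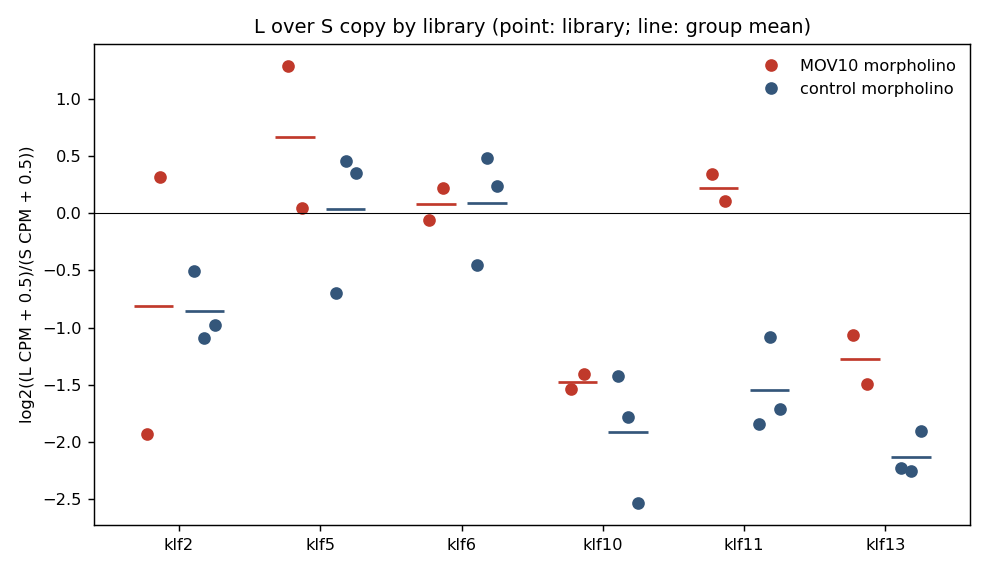
Log2 ratio of the L copy to the S copy of the 6 tested gene pairs in each library, with 0.5 CPM added to each copy. Points are libraries and lines are group means. Only klf11 passed the test, with group means of 0.22 (MOV10) and -1.55 (control).

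Other genes of the same superfamily were set beside the members. Of 10 copies of klf3, klf7, klf8, klf12 and klf15, 3 were tested and none passed edgeR's test, with 0 also at an unadjusted p under 0.05 and 0 past DESeq2's test. Their log2 differences were 1.13 ± 0.51 for klf3.L, 0.68 ± 0.52 for klf3.S and -0.74 ± 0.34 for klf8.L (SE; edgeR adjusted p = 0.106 to 0.323). Of 18 Sp copies, which share the zinc-finger fold, 12 were tested, 2 were lower and none was higher in edgeR's test (1 higher at an unadjusted p under 0.05, and 0 by DESeq2). The share called was 16.7%, against 42.1% of all genes. Both were copies of sp5, a Wnt target in vertebrate embryos. Sp5.L was at 4.80 and 2.17 CPM in MOV10 libraries, against 74.3, 65.1 and 84.7 CPM in control libraries, and sp5.S was at 3.2 and 2.65 CPM in MOV10 libraries, against 30.5, 42.8 and 42.4 CPM in control libraries. Their log2 fold changes were -4.42 ± 0.39 and -3.72 ± 0.33 (SE; edgeR adjusted p = 1.19e-04 for both).

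Of the genes listed here as cofactors, 23 copies were tested, of which 2 were higher and 7 lower, with a median log2 fold change of -0.81. The list also holds wwp1 and fbxw7, genes of ubiquitin ligases and not of transcriptional cofactors. Fbxw7.S (log2 fold change -3.21 ± 0.73, SE; edgeR adjusted p = 0.00812) and wwp1.L (-1.44 ± 0.48, adjusted p = 0.0411) were among the 7 lower. Wwp1.S (-1.08 ± 0.69, adjusted p = 0.245) did not pass edgeR's test. The share called, 39.1%, is close to the 42.1% of all genes tested. The count of lower copies was 4 in a test against a 1.5-fold change, where 32% of all genes were called. Without MOV10 replicate 2, which leaves 1 MOV10 library, fewer of these copies and fewer of all genes were called. Ctbp1.L, a corepressor that klf3 and klf8 recruit in mammals, was higher by 3.53 ± 0.36 on the log2 scale (SE; edgeR adjusted p = 2.25e-04). Crebbp.L, an acetyltransferase, was higher by 1.30 ± 0.26 (adjusted p = 0.00469). The deacetylase hdac1.S fell by 1.56 ± 0.23 (adjusted p = 0.00111) and the acetyltransferase ep300.S had a log2 fold change of -1.49 ± 0.28 (adjusted p = 0.0036). Of the other copies of these genes, crebbp.S was lower (-0.81 ± 0.26, edgeR adjusted p = 0.0351), as was hdac1.L (-0.90 ± 0.21, adjusted p = 0.0101). Ep300.L (-0.05 ± 0.30, adjusted p = 0.919) and ctbp1.S (-1.02 ± 0.88, adjusted p = 0.383) did not pass edgeR's test.

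Klf6 and klf10 are counted among genes that respond to stimulation within minutes in mammalian cells, so immediate early genes were counted too. Of 27 tested copies 16 were higher and none was lower in edgeR's test (1 lower at an unadjusted p under 0.05, and 0 by DESeq2), with a median log2 fold change of 2.88. The share higher stands beside 24.4% of all genes tested, and 59.3% of the copies were called in either direction, against 42.1% of all genes. The genes of AP-1 led, with log2 fold changes of 7.50 ± 0.41 for jund.S, 7.64 ± 0.51 for jun.L, 7.28 ± 0.58 for jun.S and 4.57 ± 0.32 for fos.S (SE; edgeR adjusted p = 1.18e-05 to 7.49e-05).

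Genes of the hatching and cement gland were found for 5 of 13 symbols, and no hatching enzyme was among them. Both ctsl models had 0 counts in every library, and the tested copies, of ag1, agr2, pax3 and zic1, were mixed. Of 8 tested copies 2 were higher and 3 lower, against 24.4% and 17.7% of all genes tested. Zic1.S, a regulator of the anterior neural border, had a log2 fold change of -3.46 ± 0.46 (SE; edgeR adjusted p = 7.36e-04), the cement gland gene ag1.L one of -3.27 ± 0.49 (adjusted p = 0.00127) and zic1.L one of -1.88 ± 0.37 (adjusted p = 0.00468). The other ag1 copy, ag1.S, was at 13.9 and 3.31 CPM in MOV10 libraries, against 4.49, 1.71 and 1.16 CPM in control libraries. It was fitted as 3.47-fold higher, opposite to ag1.L, but its groups overlapped and it did not pass edgeR's test (adjusted p = 0.0772). Both copies of agr2, of the same family as ag1, were called higher. Agr2.L was at 267.1 and 56.2 CPM in MOV10 libraries, against 20.6, 6.03 and 33.7 CPM in control libraries (log2 fold change 3.01 ± 0.73, SE; edgeR adjusted p = 0.011). Agr2.S was at 253.7 and 78.2 CPM in MOV10 libraries, against 61.8, 32.0 and 39.7 CPM in control libraries. Its log2 fold change was 1.90 ± 0.46 (SE; edgeR adjusted p = 0.0109), and 0.80 with an adjusted p of 0.133 without MOV10 replicate 2.

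Markers of endothelium and blood, where mammalian klf2 acts, summed to 53.6 and 56.2 CPM in MOV10 libraries, against 5.69, 3.99 and 6.53 CPM in control libraries. Of 25 copies 7 were tested, 3 were higher and none lower in edgeR's test (1 lower at an unadjusted p under 0.05), and 10 copies were at 0 in all controls and 9 at 0 in both MOV10 libraries. The share of tested copies called, 42.9%, is close to the 42.1% of all genes tested. The most abundant of these markers were lmo2.S and tie1.L, both higher, and tek.S, at 12.6 and 0.378 CPM in MOV10 libraries. Epithelial markers summed to 8677 and 11460 CPM in MOV10 libraries, against 7144, 5285 and 6261 CPM in control libraries. Of 22 tested copies 9 were higher and 4 lower, against 24.4% and 17.7% of all genes tested. The most abundant epithelial markers were the keratins krt18.L, which did not pass edgeR's test (adjusted p = 0.163), and krt18.S and krt12.S, both higher. The part of these cell types, of the muscle markers and of developmental age in the changes of the Kruppel-like factors was not tested.

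The authors' deposited table lists 11 of the 16 copies, 4 of them higher and 2 lower at a false discovery rate under 0.05. The share of all genes past this rate in that table is not given here, so these counts cannot be set against it. In the authors' deposited table klf2.L has a false discovery rate of 0.0594, while klf10.S has one of 3.57e-05. For klf11.S and klf5.L the authors' rates were 0.363 and 0.781. The adjusted p was 0.367 and 0.785 in edgeR's test against a 1.5-fold change, and 0.173 and 0.676 in its quasi-likelihood test. For klf6.L, klf6.S, klf13.S and klf5.S the authors' rates, 0.0413, 0.127, 0.0288 and 0.713, were also nearer to the test against 1.5-fold. That test gave adjusted p-values of 0.0446, 0.141, 0.0313 and 0.711, and the quasi-likelihood test gave 0.0241, 0.0917, 0.0164 and 0.571. For klf2.L the authors' rate lay between the adjusted p of 0.0694 against 1.5-fold and 0.0491 in the quasi-likelihood test. For klf2.S, klf11.L and both klf10 copies the authors' rates were nearer to the quasi-likelihood test. The label of the authors' deposited table names a 1.5-fold change, yet copies with smaller changes are listed, such as klf5.L at 0.319 on the log2 scale. How a 1.5-fold change entered their test was not checked, so their counts may rest on an unlike threshold.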

How the data were processed

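Libraries were prepared with a stranded mRNA kit, per the labels' protocols. The deposited files hold whole-number counts per gene in STAR's layout, of which the reverse-strand column was used. The tools named in the submitters' processing notes are STAR 2.5.2a, edgeR 3.15.2, FastQC 0.11.4 and bcl2fastq 2.17.1.14. Names and positions came from the deposited annotation on Xenla9.1. The authors' deposited table gives their log2 fold changes and adjusted p-values (false discovery rates). Its 5 columns of values per library were not used. The 4 summary lines named no gene and were left out, and 7.51 to 10.4% of reads were in genes.

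The main test was that of edgeR 4.0.16 in R 4.3.3 (filterByExpr with a minimum count of 10, TMM, glmQLFit, glmQLFTest, two-sided, with the group as sole covariate). The threshold was a Benjamini-Hochberg adjusted p of 0.05 over 20049 tested genes. SE is the log2 fold change divided by the square root of F. Ratios of copies were tested with limma 3.58.1 on log2 CPM ratios with 0.5 CPM added. Alternatives included DESeq2 1.42.0 and diffSpliceDGE. Scripts were tested on simulated data. Ratios of summed counts and shares have exact (Clopper-Pearson) 95% intervals, and the floor was 3 counts over a group. Both intervals and floor cover counting error only, since reads without molecular identifiers are not single molecules. The labels call the libraries biological replicates.

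The members and lists were chosen with earlier results of these data known. All members are named, with up to 4 called copies of smallest adjusted p per related list and the 3 most abundant copies of each marker list. The other copies of crebbp, hdac1, ep300, ctbp1, ag1 and agr2 are given beside these, as are the tested copies of wwp1 and fbxw7.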

Additional observations from a re-analysis of the deposited data

Results flagged for a closer look

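Reads on the strand opposite to the gene were not part of the comparison. In 4 member copies they were seen in both MOV10 libraries, at a level above the controls. Klf11.L had 25 such reads in the MOV10 libraries together (7 and 18), against 6, 0 and 0 in the control libraries. Klf9.L had 23 (7 and 16), against 2, 0 and 0 in the control libraries. Klf9.S had 22 (11 and 11), against 8, 0 and 0 in the control libraries. Klf6.S had 7 (4 and 3), against 0 in each control library. Over all genes the opposite strand held 11.7% and 10.7% of gene reads in MOV10 libraries, against 6.15%, 6.92% and 7.89% in control libraries, so the share was higher in MOV10 libraries for genes in general. Its part in the reads of these copies was not tested.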

How the results depend on the processing

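There were 399 values for single copies or pairs under 13 alternatives for fold changes and 11 for ratios. Of these, 369 kept their direction and side of the threshold, 16 lost the call, 2 gained it and 12 reversed. The values pool the members with the named related copies, which were picked for a small adjusted p in these same data. The pooled count is therefore no measure of how stable the members were. Calls were lost 5 times for klf2.L, 4 for klf6.L, 1 for klf13.S, 5 for the klf11 ratio and 1 for agr2.S. Klf2.S, klf10.L, klf10.S and klf11.L passed under all 13 alternatives for fold changes. Leaving out 1 control library gave 3 to 5 Kruppel-like factor copies higher and 2 lower, and 0 to 1 pairs with a changed ratio. It gave 0 to 1 Sp copies higher, 5 to 7 cofactor copies lower and 2 to 3 hatching gland copies higher. No copy of the other Kruppel-like factor genes and no immediate early copy was lower. Without control replicate 1, 2 or 3, the share of all genes tested that was called was 37%, 37.9% and 36.8%, against 42.1% in the main test. With 1 MOV10 library left out, fewer members and fewer of all genes were called than in the main test. Without MOV10 replicate 2 the share of tested members called was not above that of all genes. Calls among other Kruppel-like factor, cofactor, hatching gland and immediate early copies also moved in these fits. An arm left with 1 library is assumed to vary like the other. Of the immediate early copies, 1 was lower with both strands counted, and 1 on the scale of total gene counts. Cofactors had 4 lower copies with glmTreat against a 1.5-fold change, where klf2.L had an adjusted p of 0.0694. DESeq2, no filter and both strands each gave 5 members higher and 3 lower, of 15, 16 and 14 tested, against 12 in the main test. The shares of all genes called were 36.1%, 27.2% and 42.3%. The added higher copy was klf9.S with DESeq2 and with no filter, and klf9.L with both strands. The main filter had removed both of these copies. Scaling by total gene counts, chosen after seeing the data, moved the median of all genes to -0.115, against 0.08 with TMM, and members were at 4 higher and 3 lower.

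Reversals all concerned values that had not passed. Without 1 library, klf5.L ranged over -0.20 to 0.69, the klf2 ratio over -1.09 to 1.18 and the klf6 ratio over -0.27 to 0.19. The klf2 ratio was -0.84 with a pseudocount of 0.1 CPM. The klf6 ratio was 0.035 with a pseudocount of 1, 0.011 with both strands and 0.19 with diffSpliceDGE. The klf10 ratio was -0.12 with a pseudocount of 1. The cause was not tested.

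The groups share 2 replicate numbers, and deviations of same-numbered libraries correlated at 0.0864 and 0.0167. With 2 MOV10 libraries their deviations mirror each other, so this check cannot decide whether the numbers pair the libraries. With the replicate block, 5 members were higher and 3 lower (klf6.S 2.88, edgeR adjusted p 0.0215), 0 ratios passed (klf11 1.62, limma adjusted p 0.0635), and 4118 genes were higher and 3098 lower. Depth limits klf4, klf9 and klf13.L, whose counts per library reach 17 at most.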

Other observations

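The authors' annotation matches 6 further gene models without a klf name to human Kruppel-like factors, and they fall outside the rule for members. For the unnamed models the annotation gives the human match alone and no frog gene name. Znf534.S, matched to KLF5, was at 8.84 and 13.9 CPM in MOV10 libraries, against 1.0, 0.978 and 2.07 CPM in control libraries, and was higher by 3.07 ± 0.49 on the log2 scale (SE; edgeR adjusted p = 0.00173). Xelaev18023103m.g, matched to KLF4, was at 17.2 and 5.10 CPM in MOV10 libraries, against 30.7, 23.4 and 25.7 CPM in control libraries (log2 fold change -1.25 ± 0.47, SE; edgeR adjusted p = 0.0596). Xelaev18025218m.g, matched to KLF2, was at 12.5 and 4.25 CPM in MOV10 libraries, against 26.2, 17.8 and 13.6 CPM in control libraries (log2 fold change -1.20 ± 0.49, SE; edgeR adjusted p = 0.0806). Both MOV10 libraries lay below all controls for these 2 models, without passing the test. The other models had at most 32 counts in any library. These models were named after their values were seen.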
